A study of Rattus norvegicus with 6 samples.

Results

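Cadherins are calcium-dependent adhesion proteins that join neighbouring cells, and 6 of their genes known from bone and marrow cells were looked up in an array comparison of rat bone cells: Cdh1, Cdh2, Cdh3, Cdh11, Cdh13 and Cdh15. A gene was taken where the annotation of the array gave its symbol, and no other, to a row of the deposited table. This found 4 of the 6 genes, Cdh1, Cdh2, Cdh13 and Cdh15, among 14506 genes named in this way. Cdh3, which encodes P-cadherin, and Cdh11, the osteoblast cadherin gene, matched no such row and are not analysed here. Each gene found had 1 row, so the rule for genes with several rows, by which a row is selected on its mean signal over all arrays, decided nothing. The genes were chosen by symbol. They, and the contrast of Cdh1 with mesenchymal cadherins, were proposed with results of this comparison known. Their values therefore describe these arrays and are not independent evidence.

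The cells came from the long bones of newborn Sprague Dawley rats, 2 to 5 days old, with no genetic change or drug named in the labels. They were freshly extracted and let adhere to plates coated with either mouse prothrombin (PT), the precursor of the clotting protease thrombin, or osteopontin (OPN) from bovine milk, an acidic bone matrix protein that binds integrins. Their RNA was hybridised to whole-transcript rat arrays (Affymetrix Rat Gene 1.0 ST), 3 for PT (replicates 1, 2 and 4) and 3 for OPN (replicates 2, 3 and 4). The question of the comparison is how the cell populations held by the coatings differ.

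In a classical cadherin the outer domains bind the same cadherin on the next cell, and the inner tail binds β-catenin or plakoglobin and, through α-catenin, actin. E-cadherin, the product of Cdh1, is known from epithelia and also from erythroid precursors and some macrophages, and it has been linked to the fusion of myeloid cells. N-cadherin, that of Cdh2, is typical of osteoblasts, stromal cells and other mesenchymal cells. T-cadherin is held in the membrane by a lipid anchor and has no inner tail, and M-cadherin is known from muscle precursors.

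Values are linear PLIER signals, the summary of the probe intensities of a row. Differences are OPN minus PT on the scale log2(signal + 16), which understates the change of dim rows, and fold differences are on the same scale. A row is called where limma's test, fitted to all 29215 rows, gave a Benjamini-Hochberg adjusted p below 0.05, and rose, fell and lower or higher calls refer to that. Array medians lay between 207.8 and 231.4 units, with OPN replicate 4 at 218.4 units the lowest of its coating. Over all rows 1475 were called higher and 225 lower on OPN, which became 1193 and 551 with equal array medians and 1360 and 745 with quantile normalisation. Without OPN replicate 2 the counts were 982 and 98, and without OPN replicate 3 they were 928 and 95. Leaving out OPN replicate 4 gave 99 lower calls, PT replicate 2 gave 121 and PT replicate 4 gave 129. The median difference over all rows was 0.03. Detection above background was not assessed, and precision is limited by how few arrays there are. Nothing in the labels ties the arrays of a coating to separate animals or cell extractions, and p-values reflect only the variation among these arrays, possibly technical.

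The measured cadherins moved in different directions. Cdh2 rose 7.90-fold on OPN, Cdh15 rose 1.51-fold, Cdh1 fell, with PT 1.45-fold above OPN, and Cdh13 was not called. With 2 of 4 genes called higher and 1 called lower, the background stands at 5.82% of all rows called in either direction, 5.05% higher and 0.77% lower. The PT and OPN arrays did not overlap in Cdh1, Cdh2 and Cdh15, against 23.7% of all rows, and overlapped in Cdh13.

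**Figure D1:**
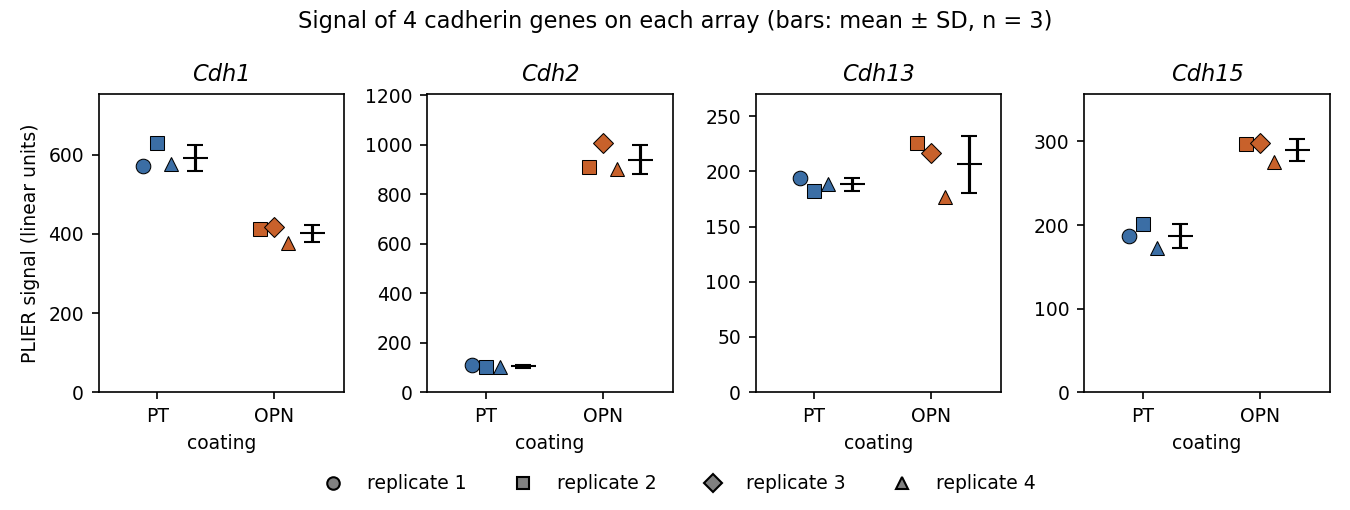
PLIER signal (linear units, axes from 0, a separate scale for each gene) of Cdh1, Cdh2, Cdh13 and Cdh15 on each of the 3 PT and 3 OPN arrays; symbols give the replicate number and bars the mean ± SD. The OPN arrays lie below the PT arrays for Cdh1, above them for Cdh2 and Cdh15, and on both sides of them for Cdh13.

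Cdh1 encodes E-cadherin. Its signal on PT was 570.4 units in replicate 1, 629.0 in replicate 2 and 576.6 in replicate 4. On OPN it was 412.3 units in replicate 2, 416.2 in replicate 3 and 377.4 in replicate 4. Every PT array was thus brighter than every OPN array, with PT replicate 2 the highest and OPN replicate 4 the lowest. The means were 592 ± 32.2 units on PT and 402.0 ± 21.4 on OPN (SD, n = 3), a log2 difference of -0.54 (SE 0.075, 95% interval -0.71 to -0.37, adjusted p = 0.00315 by limma). A larger decrease was seen in 67 of the 29215 rows. The decrease stayed called when any 1 array was left out and under both scalings of the arrays.

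Cdh2 encodes N-cadherin. On PT its signal was 111.4 units in replicate 1, 101.8 in replicate 2 and 101.8 in replicate 4. On OPN it was 911.2 units in replicate 2, 1006 in replicate 3 and 903.8 in replicate 4. The coatings were far apart and the arrays within each lay close together, with a coefficient of variation of 5.26% on PT and 6.07% on OPN. The means were 105.0 ± 5.53 units on PT and 940.4 ± 57.1 on OPN (SD, n = 3). The log2 difference was 2.98 (SE 0.075, 95% interval 2.81 to 3.15, adjusted p = 1.68e-07 by limma), and 27 rows had a larger increase. The linear ratio of the means, 8.96, is higher than the fold on the log2(signal + 16) scale, where 16 is added to both signals. The share of background in the deposited PT signal is not known, and none was subtracted here for either value.

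Cdh15 encodes M-cadherin. Its signal was 186.8 units in PT replicate 1, 201.3 in PT replicate 2 and 172.0 in PT replicate 4. It was 297.4 units in OPN replicate 2, 297.8 in OPN replicate 3 and 275.1 in OPN replicate 4. All OPN arrays lay above all PT arrays, and OPN replicates 2 and 3 were nearly equal. The means were 186.7 ± 14.6 units on PT and 290.1 ± 13.0 on OPN (SD, n = 3), a log2 difference of 0.60 (SE 0.079, 95% interval 0.42 to 0.78, adjusted p = 0.00236 by limma).

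Of the 6 genes, Cdh15 had a promoter in the sequence table used, taken from RefSeq on GRCr8. It is shown because Cdh15 rose and because several genes of factors that bind E-boxes, among them Twist1, Snai1 and Myod1, were measured on the same arrays. Myod1 was not called, and a part of any such factor in the rise of Cdh15 was not tested. The sequence is the + strand at chr19:67814407-67814706, from 250 bases before to 50 after the annotated start of the gene. Capitals mark the E-box letters CANNTG, which read the same on both strands.

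Cdh15 promoter: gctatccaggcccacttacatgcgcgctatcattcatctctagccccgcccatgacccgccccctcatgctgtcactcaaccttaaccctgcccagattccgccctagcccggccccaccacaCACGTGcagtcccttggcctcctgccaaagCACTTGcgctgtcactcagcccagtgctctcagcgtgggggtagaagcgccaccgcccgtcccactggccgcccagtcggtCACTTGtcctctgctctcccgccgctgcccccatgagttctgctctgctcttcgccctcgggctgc

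There were 3 matches, beginning 127, 97 and 16 bases before the start, and they do not overlap each other. The first reads CACGTG and the others CACTTG. At least 1 match is found in 72.1% of the 33469 promoters of this length in the table, and 3 or more in 16.6%, so the letters are common. A match describes the sequence and does not show a bound site.

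Cdh13 encodes T-cadherin, which is also a receptor for adiponectin. On PT its signal was 194.5 units in replicate 1, 182.1 in replicate 2 and 188.3 in replicate 4. On OPN it was 225.6 units in replicate 2, 216.5 in replicate 3 and 177.2 in replicate 4. OPN replicates 2 and 3 lay above all PT arrays and OPN replicate 4 below all of them. The means were 188.3 ± 6.21 units on PT and 206.4 ± 25.7 on OPN (SD, n = 3), a log2 difference of 0.12 (SE 0.094, 95% interval -0.10 to 0.33, adjusted p = 0.616 by limma). The interval leaves room for an increase of up to 0.33 and for a small decrease, so it does not show that the gene is equal on the coatings. Without OPN replicate 4 the difference was 0.21 (adjusted p = 0.228 by limma), without OPN replicate 2 it was 0.05, and it was 0.05 with equal array medians.

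Within OPN, replicate 4 gave the lowest signal for all 4 genes, Cdh1 included, and it also had the lowest array median of that coating.

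Between the coatings Cdh1 and Cdh2 differed in opposite directions. Within OPN they did not, as both were highest on replicate 3 and lowest on replicate 4. The log2 value of Cdh1 minus that of Cdh2, each centred on its mean over the 6 arrays, was 1.64, 1.89 and 1.76 on PT replicates 1, 2 and 4. It was -1.68, -1.81 and -1.79 on OPN replicates 2, 3 and 4. The arrays of a coating lay within a narrow band and the coatings were far apart. The means were 1.76 ± 0.13 on PT and -1.76 ± 0.069 on OPN (SD, n = 3), a difference of -3.52, most of which came from Cdh2. As the contrast was proposed with its direction known, it is given without a test. It was planned with the mean of Cdh2 and Cdh11 and rests on Cdh2 alone. Cdh15 moved in the direction of Cdh2 by a smaller amount.

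**Figure D2:**
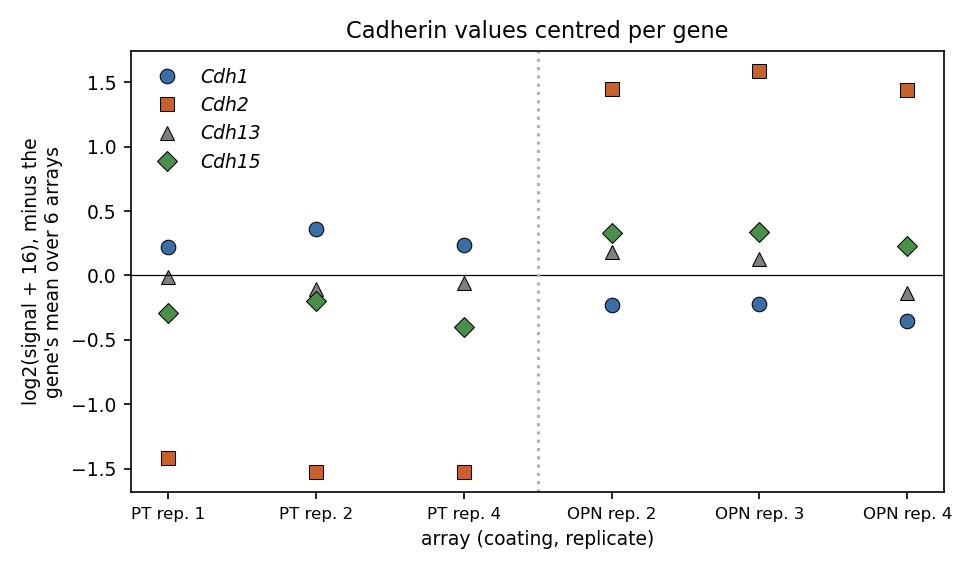
Log2(signal + 16) of each cadherin gene minus its own mean over the 6 arrays (vertical axis, log2 units) for every array (horizontal axis). Cdh2 lies near -1.5 on PT and near 1.5 on OPN; Cdh1 lies above 0 on the 3 PT arrays and below 0 on the 3 OPN arrays, Cdh15 the other way round, and Cdh13 on both sides of 0 within OPN.

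Marker genes of cell types known for these cadherins were looked up on the same arrays, which do not show the cells that carried the cadherins. In bulk RNA, fewer cells of a type and less RNA per cell cannot be told apart. Beside the rise of Cdh2, 15 of 16 measured osteoblast genes rose, against 5.05% of all rows, with a median of 2.00. Their summed signal was 11967 to 12977 units on PT and 58686 to 65439 on OPN. The endopeptidase gene Phex (3.15), the matrix glycoprotein gene Sparc (3.13) and the collagen gene Col1a2 (2.47) had the smallest p among them, and Sost, at -0.01 and above 0 without OPN replicate 3 or PT replicate 4, was not called. All 11 measured stromal fibroblast genes rose, with a median of 1.95 and summed signals of 2160 to 2242 units on PT and 9416 to 10234 on OPN. They were led in p by Igfbp5 (2.59), which encodes a protein that binds insulin-like growth factors, and the proteoglycan genes Bgn (3.18) and Lum (3.31). No gene of either list was at 0, that is below 1 unit on any array. The part of these cells in the Cdh2 difference was not tested.

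Beside the fall of Cdh1, 10 of 16 measured macrophage genes fell, against 0.77% of all rows, with a median of -0.49. Their summed signal was 16497 to 17452 units on PT and 11671 to 12561 on OPN. The scavenger receptor gene Cd163 (-0.87), the mannose receptor gene Mrc1 (-0.79) and the complement gene C1qa (-0.75) had the smallest p. The M-CSF receptor gene Csf1r (0.12) and Cd68 (0.18) were not called. Of 12 measured erythroid genes 4 fell, or 33.3% against 0.77% of all rows, with a median of -0.27. The summed signals of the list were 65474 to 72168 units on PT and 58441 to 62607 on OPN. The 4 genes were the red cell skeleton genes Ank1 (-0.38), Epb42 (-0.35) and Sptb (-0.34), and Rhag (-0.30), which was named after its values were seen. The erythroid calls numbered 0 when any array other than PT replicate 1 was left out, with 10 genes below an unadjusted p of 0.05 on all 6 arrays in limma's test, and 7 with equal array medians.

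Epithelial markers, which would accompany E-cadherin in epithelium, gave 1 call among 15 measured genes, a lower one. This is 6.67% of the list, against 5.82% of all rows called in either direction and 0.77% called lower. Spint1 (-0.34, adjusted p = 0.0441 by limma), a membrane inhibitor of serine proteases, fell, a call that was lost when any 1 array was left out (adjusted p between 0.0633 and 0.164). Epcam, an epithelial adhesion molecule gene, had 128.9 ± 5.25 units on PT and 121.5 ± 13.8 on OPN (SD, n = 3), a difference of -0.08 that turned to 0.01 without OPN replicate 2. Of the 15 genes 13 lay below 0, among them the keratin genes Krt8 (-0.19) and Krt19 (-0.16), which had no call. Krt7 (0.26) and Spint2 (0.23) lay above 0 without a call, each with an unadjusted p below 0.05 in limma's test. Spint2 and the keratin genes named here had no overlap between coatings, as did 23.7% of all rows. The list had a median of -0.09, with summed signals of 3797 to 3914 units on PT and 3368 to 3675 on OPN. In the list of dendritic and Langerhans cells, another place where E-cadherin is known, Cd83 (-0.53), a surface gene of activated dendritic cells, fell. The other 7 of the 8 genes measured had no call. Cd207, Itgax and Siglech of this list were not measured, so the count does not cover the whole list. The median was -0.04, with summed signals of 2271 to 2335 units on PT and 2041 to 2142 on OPN. Leaving out any array but PT replicate 1 lost the call of Cd83 (adjusted p between 0.0552 and 0.0826). No macrophage, erythroid, epithelial or dendritic gene was at 0 on any array, and the part of any of these cells in the Cdh1 difference was not tested.

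Beside the rise of Cdh15 no measured muscle gene was called, and Pax7 and Myh8 of the list were not measured. Limma's test called 0 of 15 measured myogenic genes, 2 of which had an unadjusted p below 0.05, 1 in each direction, and the list had a median of 0.03. Its summed signal was 3992 to 4293 units on PT and 3904 to 4256 on OPN, ranges that overlap. The myogenic regulators Myod1 (-0.07) and Myog (-0.02, and 0.04 without PT replicate 1) lay close to 0, and the filament gene Des (0.34, adjusted p = 0.107 by limma) above it. Myod1 had 172.7 ± 13.3 units on PT and 163.0 ± 8.23 on OPN (SD, n = 3), so it was not at 0 in the table, although whether it lay above background is not known. The part of muscle cells in the Cdh15 difference was not tested.

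Of 13 other cadherin genes measured, 1 was called, or 7.69%, near the 5.82% of all rows called, and the median difference was 0.01. The called gene was Cdh5, which encodes the cadherin of endothelial junctions, with 243.1, 241.4 and 255.5 units on PT replicates 1, 2 and 4 and 381.7, 400.0 and 357.2 on OPN replicates 2, 3 and 4. Its arrays did not overlap between coatings, and the difference was 0.59 (SE 0.072, adjusted p = 0.00148 by limma), close in size to that of Cdh15. On the same arrays 11 of 14 measured endothelial genes rose, Cdh5 among them, against 5.05% of all rows, with a median of 0.60. Kdr (1.15), Tek (1.09) and Ramp2 (0.81), receptor genes of endothelium, had the smallest p, and the summed signal was 2777 to 2934 units on PT and 4205 to 4431 on OPN. Cdh17, the gene of a cadherin known from liver and intestine, had 0.38 (SE 0.096) without a call (adjusted p = 0.0588 by limma). It had no overlap between coatings, as did 23.7% of all rows. It was named after its values were seen, and it was called with quantile normalisation (adjusted p = 0.0276), with an offset of 64 (adjusted p = 0.0458) and among rows of at least 100 units (adjusted p = 0.0256). The remaining 11 spanned -0.09 for Cdhr1 to 0.22 for Cdh19.

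**Figure D3:**
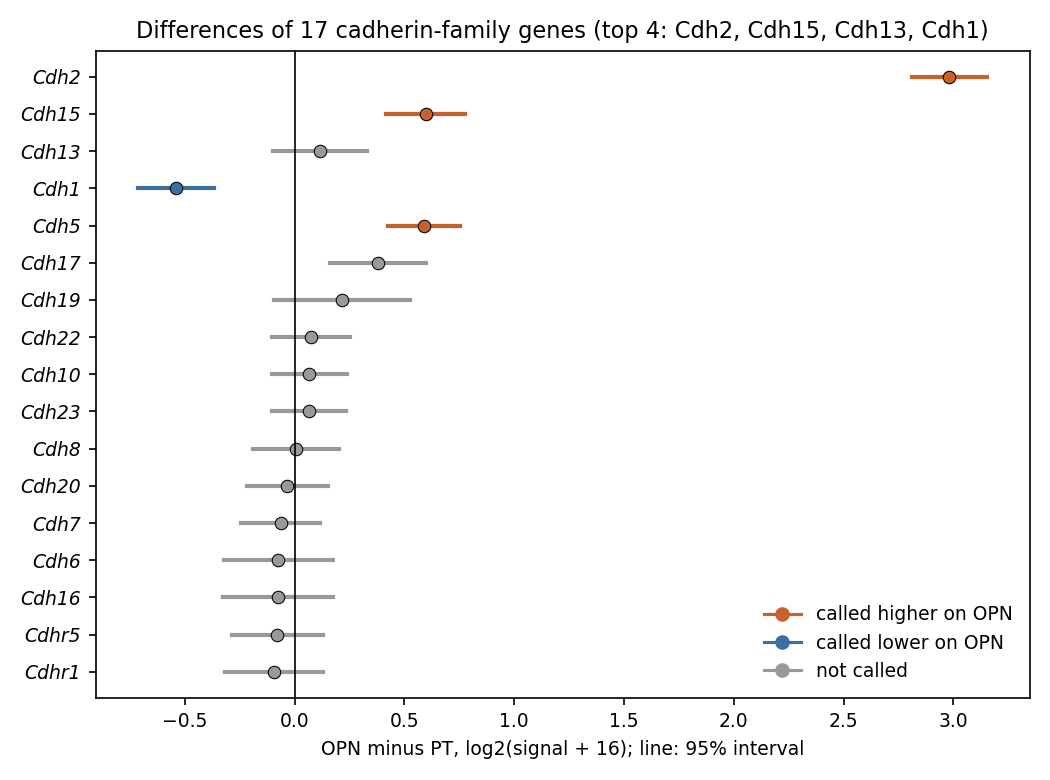
Difference OPN minus PT on the log2(signal + 16) scale (horizontal axis) for 17 cadherin-family genes, with the 4 genes of the report at the top and 13 others beneath; points are fitted differences, lines 95% intervals and colours the call. Cdh2 stands at 2.98, Cdh15 and Cdh5 near 0.6 and Cdh1 at -0.54, while most others have intervals across 0.

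Among larger relatives, 3 of 13 measured protocadherin and giant cadherin genes rose, or 23.1% against 5.05% of all rows. The others were not called, and the median was 0.04. Fat1, a giant atypical cadherin gene, had 163.7, 133.8 and 144.7 units on PT replicates 1, 2 and 4 and 619.1, 740.0 and 740.2 on OPN replicates 2, 3 and 4. This was a 4.38-fold difference with no overlap between coatings. Fat3 (1.05) and the protocadherin gene Pcdh18 (0.89) rose by less.

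Genes of the inner side of the junction rose in part. Of 18 measured catenins and actin linkers 6 rose, or 33.3% against 5.05% of all rows, and 12 were not called. The median was 0.24. Ctnnb1, the gene of β-catenin, had 635.4, 674.0 and 691.9 units on PT replicates 1, 2 and 4 and 1489, 1756 and 1409 on OPN replicates 2, 3 and 4. OPN replicate 3 was the brightest, and the coatings did not overlap (2.29-fold, adjusted p = 0.000109 by limma). Ctnna1 (0.71), the gene of the α-catenin that links to actin, rose with Vcl (0.62), which encodes vinculin, and Actn1 (0.47), an actin cross-linker gene. The junction scaffold genes Tjp1 (1.73) and Afdn (0.68) rose as well. Jup (0.20, adjusted p = 0.309 by limma), the plakoglobin gene, and Ctnnd1 (0.26, adjusted p = 0.0590 by limma), the gene of the catenin that binds near the membrane, were not called, and both were named after their values were seen. Ctnnd1 was called with an eBayes trend (adjusted p = 0.0147), with an offset of 64 (adjusted p = 0.0324) and among rows of at least 100 units (adjusted p = 0.0375).

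Transcription factors known to shift cells between E-cadherin and N-cadherin were measured for 15 genes. Of these 6 rose, or 40% against 5.05% of all rows, with a median of 0.23. Snai1, whose product represses Cdh1 in epithelial cells, had 120.4, 127.1 and 134.2 units on PT replicates 1, 2 and 4 and 217.0, 224.1 and 224.6 on OPN replicates 2, 3 and 4, with no overlap (difference 0.73, adjusted p = 0.000319 by limma). The mesenchymal homeobox gene Prrx1 (1.82) and the zinc finger gene Klf4 (0.94) were also called higher. The list pools factors whatever their effect on Cdh1, so its count is not a count of repressors. Twist1 (1.51), Tcf4 (0.46) and Snai2 (0.44), which encode factors that bind E-boxes, completed the 6, and the E-box binding genes Zeb1 (0.15) and Zeb2 (0.23) were not called. These 5 were named after their values were seen. Twist1 was dim on PT, at 74.3, 40.9 and 74.0 units on replicates 1, 2 and 4, against 204.8, 192.3 and 214.3 on OPN replicates 2, 3 and 4. The call of Snai2 was lost without OPN replicate 3 (adjusted p = 0.0512). Several of these genes are also expressed by osteoblast and stromal cells, whose marker lists rose by the medians of 2.00 and 1.95 given before, and their part in these differences was not tested.

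**Figure D4:**
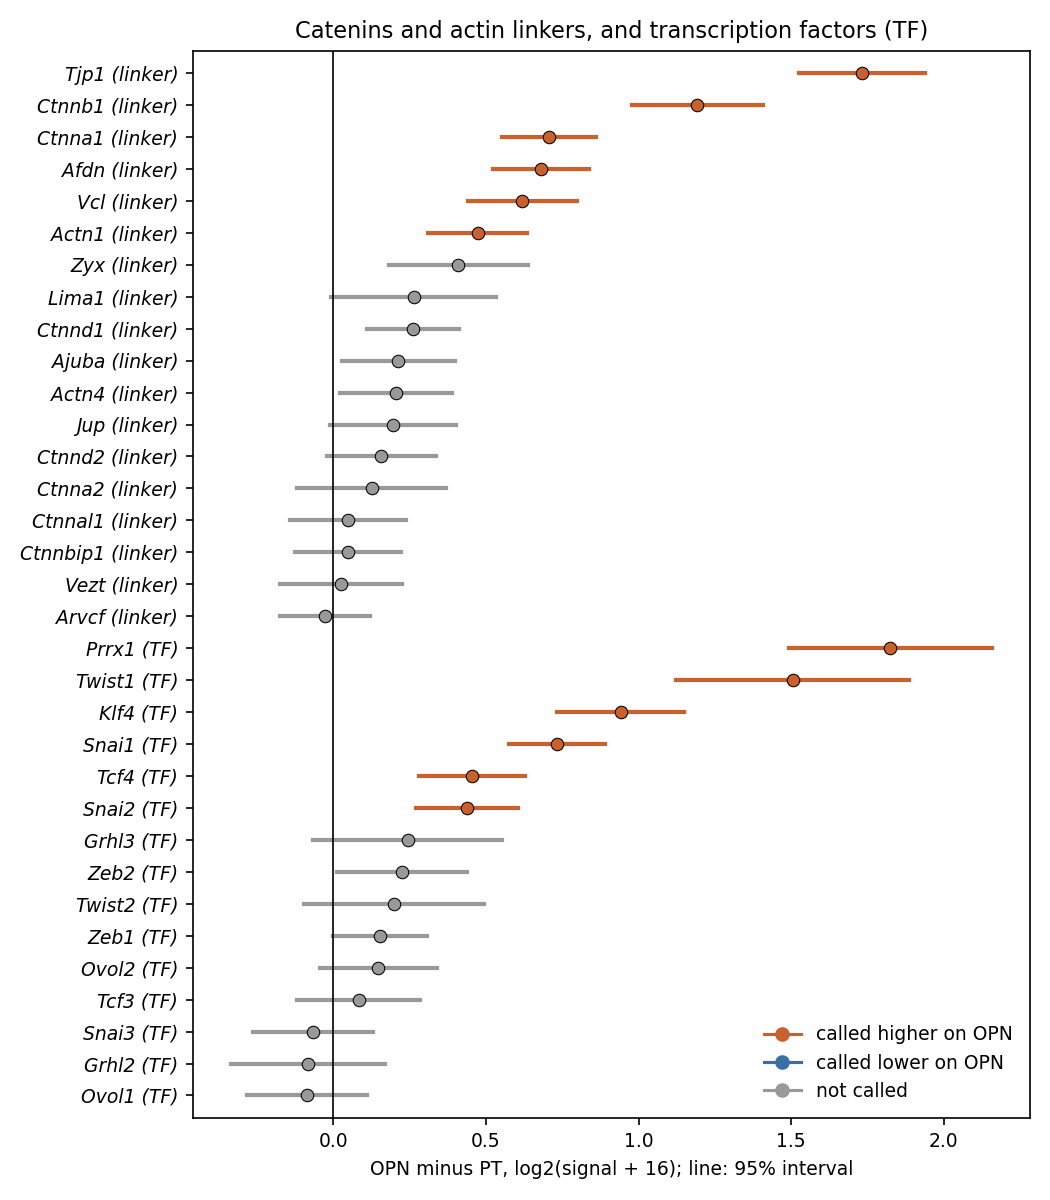
Difference OPN minus PT on the log2(signal + 16) scale (horizontal axis) for 18 catenins and actin linkers and 15 transcription factors; points are fitted differences, lines 95% intervals and colours the call. In each list 6 genes are called higher on OPN, with Tjp1 (1.73) and Prrx1 (1.82) farthest from 0, and the genes below 0 are not called.

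Of 16 measured genes of cadherin processing and turnover 5 rose, or 31.2% against 5.05% of all rows. The others were not called, and the median was 0.16. Mmp14 (2.05), a membrane-bound matrix protease gene, stood far from the others. Src (0.47), a kinase gene that acts on junctions and on the osteoclast skeleton, and Pcsk6 (0.41), a proprotein convertase gene, rose by less. Pcsk5 (0.46), also a convertase gene, and Ncstn (0.36), a subunit gene of γ-secretase, completed the 5 calls and were named after their values were seen. The call of Ncstn was lost with equal array medians (adjusted p = 0.0736). Leaving out 1 array lost Ncstn in each case but PT replicate 4 and Pcsk5 in each case but OPN replicate 4, and Pcsk6 was lost without OPN replicate 3 (adjusted p = 0.0518). The list counted 3 calls without OPN replicate 2, PT replicate 1 or PT replicate 2 and 2 without OPN replicate 3.

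Other junction families differed in their counts. Limma called 0 of 7 measured desmosome genes, the family of junctions that contain desmosomal cadherins, and 0 of them had an unadjusted p below 0.05 (median -0.03). Of 8 measured nectins and related genes 3 rose, or 37.5% against 5.05% of all rows, with a median of 0.08. These were Cadm1 (1.62), an immunoglobulin-type adhesion gene, Nectin3 (0.88) and the poliovirus receptor gene Pvr (0.47). The call of Pvr was lost without OPN replicate 2, OPN replicate 4 or PT replicate 2 (adjusted p between 0.0503 and 0.0738). The 3 genes of leukocyte receptors that bind E-cadherin were measured and limma called 0 of them, with 0 at an unadjusted p below 0.05. Itgae, the integrin chain of intraepithelial lymphocytes, had 155.8 ± 4.77 units on PT and 165.2 ± 7.47 on OPN (SD, n = 3).

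By the root mean square difference of centred log2 values over the 6 arrays, among 13223 genes with a mean signal of at least 100 units, the gene nearest to Cdh1 was Apoe (0.026), which encodes a lipid carrier. It was followed by the phosphatase gene Ptpro (0.032), the lipase gene Abhd12 (0.033), the oxysterol receptor gene Nr1h3 (0.039) and the transporter gene Slc15a3 (0.040). Apoe had 2819 ± 211 units on PT and 1891 ± 121 on OPN (SD, n = 3), and its difference of -0.57 lay close to the -0.54 of Cdh1. The same list was planned for Cdh11 and was made for Cdh2 and Cdh15 instead, a choice made after the values were seen. Nearest to Cdh2 were Fkbp10 (0.063), a collagen chaperone gene, the collagen gene Col5a2 (0.063), the carboxypeptidase gene Cpe (0.079), the lysyl hydroxylase gene Plod2 (0.086) and Sparc (0.092). Nearest to Cdh15 were Fto (0.033), the sulfotransferase gene Chst11 (0.040), the phospholipase gene Pla1a (0.045), the tetraspanin gene Tspan7 (0.047) and the malic enzyme gene Me1 (0.052). The measure follows mainly the size and direction of the difference between coatings, which the 6 arrays share.

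The remaining marker lists are given for the other cells that the coatings could hold. For comparison, 5.05% of all rows were called higher and 0.77% lower. Of 10 measured osteoclast genes 7 rose (median 1.24), led in p by Ctsk (4.35), Acp5 (2.46) and Mmp9 (2.90). Calcr (0.18), Ostm1 (0.27) and Car2 (-0.21) were not called. The summed signals were 11633 to 13956 units on PT and 29370 to 32916 on OPN. Car2 made up most of the sum on PT, with 7660 to 9646 units there and 7313 to 8106 on OPN. Of 12 measured smooth muscle and pericyte genes 6 rose (median 0.32), led by Rgs5 (0.86), Abcc9 (0.56) and Notch3 (0.80). Acta2 (0.06), Tagln (0.15), Myh11 (0.04), Cnn1 (-0.09), Myocd (0.15) and Des (0.34) were not called. Of 9 measured megakaryocyte and platelet genes 7 rose (median 0.71), led by Selp (1.14), Thbs1 (1.32) and Pf4 (0.80). Of 14 measured chondrocyte genes 3 rose and 1 fell (median 0.13), with Col11a1 (3.29) and Col11a2 (1.42) among the first and Sox6 (-0.36) the last, a call lost without OPN replicate 2 (adjusted p = 0.0700). Limma called 0 of 12 measured granulocyte genes, 5 of which had an unadjusted p below 0.05, with a median of 0.25. Without PT replicate 4 it called 6 of them higher.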

How the data were processed

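RNA of adherent cells, 300 ng per array, was labelled without removal of ribosomal RNA, per the labels' protocols. The deposited table holds 1 linear intensity per row and array, made by the authors with Affymetrix Expression Console and PLIER per the submitters' processing notes. Not given in the sources used here: versions, background correction and scaling. No value lies below 0, and background, whose share is unknown, shrinks the differences of dim rows. Rows were named through the platform annotation: 15310 of 29215 had 1 symbol, 323 several and 13582 none. By Entrez identifier 15279 of the named rows were found in the GRCr8 gene table, with 0 symbols updated.

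Values were transformed as log2(intensity + 16). All rows, unfiltered, entered a linear model of the coating in limma 3.58.1 (lmFit, eBayes, two-sided) under R 4.3.3. The fit was checked on simulated data with independent normal noise, a check that cannot show effects shared between arrays. The members and the 21 gene lists (8 on junctions, 13 of cell type markers) were chosen with earlier results of these data known. Of 314 genes in the lists and among the members, 259 were measured. Named genes are the 4 cadherins, up to 3 called genes with the smallest p per list, every called gene among other cadherins, linkers and leukocyte receptors, and the 5 nearest genes by centred values. Genes named otherwise are marked or stand as uncalled or near-background examples. Both groups hold replicates numbered 2 and 4, but no label ties them to a common preparation, so the test has no block. Alternatives were the offset, the scaling of arrays, a filter on dim rows, a trend in eBayes, the replicate block and leaving out each array.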

Additional observations from a re-analysis of the deposited data

How the results depend on the processing

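The differences of Cdh1, Cdh2, Cdh13 and Cdh15 kept their direction under every alternative run, and their calls under all but 1, the replicate block, where Cdh15 was at 0.58 and not called (adjusted p = 0.0523 by limma), leaving 1 cadherin called higher. Leaving out 1 array gave -0.57 to -0.50 for Cdh1, 2.93 to 3.02 for Cdh2, 0.05 to 0.21 for Cdh13 and 0.54 to 0.65 for Cdh15. The contrast of Cdh1 with Cdh2, -3.52, became -3.71 with an offset of 1 and -3.06 with an offset of 64, which damps the dim PT signal of Cdh2 by construction. Leaving out 1 array moved it between -3.59 and -3.46.

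Over all rows the 1475 higher calls became 618 with the replicate block, and 928 to 1357 with 1 array left out. The 225 lower calls became 48 with the replicate block, 382 with an offset of 64, 551 with equal array medians, 745 with quantile normalisation, 343 among rows of at least 100 units and 508 with an eBayes trend. They were 95 to 181 with 1 array left out. The replicate block leaves few residual degrees of freedom, and same-numbered arrays deviated with a correlation of -0.08 for number 2 and 0.07 for number 4, so the numbers are not shown to pair the arrays. With the block 21 of 68 called named genes lost their call (adjusted p between 0.0513 and 0.355): Cdh5, Vcl, Actn1, Snai2, Tcf4, Src, Pcsk5, Pcsk6, Ncstn, Pvr, Abcc9, Spint1, Ank1, Epb42, Sptb, Rhag, Sox6, Abhd12, Fto, Pla1a and Tspan7. The list counts that fell by over 1.5 times with it were other cadherins (from 1 to 0), processing and turnover (5 to 1), endothelial (11 to 6), smooth muscle and pericyte (6 to 2), and the lower calls of the erythroid (4 to 0), epithelial (1 to 0) and chondrocyte (1 to 0) lists. Of the 86 named genes run under the alternatives, 3 uncalled ones changed sign: Epcam (0.0059 without OPN replicate 2, lowest value -0.15), Myog (0.048 with the block, 0.042 without PT replicate 1) and Sost (0.047 with the block, 0.072 without OPN replicate 3, 0.051 without PT replicate 4). Their leave-one-out values reached down to -0.13 for Epcam, -0.058 for Myog and -0.091 for Sost. Of 1117 alternative values of these genes 1033 kept direction and call. Each cadherin has 1 row, so no other row could be tried. Without detection calls, how far Cdh2 on PT lay above background is not known.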
